A study of Mus musculus with 6 samples.

Results

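Wnt ligands, their Frizzled receptors and the secreted proteins that block them were examined in RNA-seq of whole small intestine, as 41 protein-coding genes of the 55487 genes in the deposited table. The members were chosen by gene class and symbol: 19 genes named Wnt with a number, 10 Frizzled genes (Fzd), 5 genes for secreted frizzled-related proteins or their relatives together with Wif1 (Sfrp1, Sfrp2, Sfrp4, Sfrp5 and Frzb), 4 Dickkopf genes (Dkk), and Porcn and Wls, which act in ligand secretion. The study compared 3 libraries from Lgr5-2A-DTR mice (DTR) with 3 wild-type libraries (WT). In the DTR mice the diphtheria toxin receptor is made from the locus of Lgr5, the receptor gene that marks crypt base stem cells, so that toxin kills cells in which that locus is active. DTR and WT mice alike were C57BL/6 adults over 8 weeks old that had been given diphtheria toxin (20 µg per kg a day over 4 days), with tissue taken 6 h after dosing ended, so the toxin itself is common to the groups. Sex, litter and the mouse behind each library are not stated in the labels, and p-values therefore reflect the spread between libraries alone, which may be technical. Whole organs were lysed, so each value sums over epithelium, stroma, muscle, nerve, vessel and immune cells, and in such bulk samples fewer cells of a type and less RNA per cell cannot be told apart.

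Wnt proteins are secreted lipid-modified ligands. Porcn attaches the lipid, Wls carries the ligand to the cell surface, and Frizzled receptors bind it together with Lrp5 or Lrp6, which stabilises β-catenin, or pass on signals that do not use β-catenin. Sfrp, Frzb and Wif1 proteins bind the ligand outside the cell, whereas Dkk1, Dkk2 and Dkk4 bind Lrp5 and Lrp6. In the small intestine Wnt signals keep crypt stem cells dividing, with Wnt3 made by Paneth cells and Wnt2b, Wnt4 and Wnt5a made mainly by the stroma beneath the epithelium.

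Promoter windows of 2 genes are shown. Sfrp5 is the member with the largest change past the test. Wnt11 is a ligand with higher values in DTR, at a level too low for the main test. It was chosen in part for a TCF-type sequence at its start, so the 2 windows do not stand for the members as a whole. RefSeq windows on build GRCm38.p6, running from 250 bases before to 50 bases after the annotated start, were held for 28 of the 41 members, as 31 windows. Capitals mark ATCAAAG, the reverse complement of CTTTGAT, a sequence recognised by the TCF/LEF factors that partner β-catenin. The windows, 5′ to 3′, are Sfrp5 at chr19:42202203-42202502 on the minus strand and Wnt11 at chr7:98834862-98835161 on the plus strand.
Sfrp5: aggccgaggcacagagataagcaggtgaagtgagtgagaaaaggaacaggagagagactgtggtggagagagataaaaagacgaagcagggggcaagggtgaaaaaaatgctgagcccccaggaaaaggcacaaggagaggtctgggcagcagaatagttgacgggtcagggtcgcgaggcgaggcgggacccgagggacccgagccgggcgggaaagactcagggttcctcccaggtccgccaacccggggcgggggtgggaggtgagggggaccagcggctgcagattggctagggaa
Wnt11: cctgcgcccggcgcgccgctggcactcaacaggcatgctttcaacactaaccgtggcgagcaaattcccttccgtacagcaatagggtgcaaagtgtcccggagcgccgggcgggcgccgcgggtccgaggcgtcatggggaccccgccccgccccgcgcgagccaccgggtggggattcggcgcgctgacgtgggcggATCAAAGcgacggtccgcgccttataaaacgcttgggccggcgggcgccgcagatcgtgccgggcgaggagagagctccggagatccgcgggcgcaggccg
The search covered CTTTGAA and CTTTGAT on both strands. CTTTGAA was found in 5.14% of all 32851 windows and in 1 of the 31 windows of members (Dkk1). CTTTGAT was found in 3.73% of all windows and in 2 of the 31 (Wnt11 and Wnt5b). The Wnt11 match began 51 bases before the start, and TATAAA, present in 13.6% of all windows, began 29 bases before it. The second Wnt11 window and the Sfrp5 window held neither CTTTGAA nor CTTTGAT. A match is a description of the letters and not a measured site.

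The libraries held 61404574 to 64972540 reads in genes in DTR and 62092869 to 76596766 in WT. Lgr5 stood at 0.0332, 0 and 0.0533 RPKM in DTR replicates 1, 2 and 3, against 0.415, 0.404 and 0.294 RPKM in WT replicates 1, 2 and 3 (RPKM, reads per kilobase of gene scaled to library size). A two-sided exact permutation of Lgr5 gave p = 0.1, the smallest that 3 against 3 libraries allow. Xist had 22432 to 24279 reads in DTR and 16 to 38 reads in WT, and the Y-linked Ddx3y had 0 reads in DTR and 2688 to 3668 in WT, so genotype and this sex pattern cannot be told apart in any comparison. Markers of epithelium (8 genes) summed to 4102 to 6243 RPKM in DTR and 4450 to 4947 RPKM in WT. They did not move as 1 group, with 6 log2 means higher and 2 lower in DTR. Vil1 was at 315 to 513 RPKM in DTR and 722 to 834 RPKM in WT. Cdh1 was at 120 to 261 RPKM in DTR and 95.6 to 113 RPKM in WT. Pancreas markers were also abundant, at 7096 to 21754 RPKM in DTR and 10106 to 28867 RPKM in WT, with Amy2a3 at 0 in all libraries. The part of pancreas RNA in the values of the members was not tested. Paneth markers (9 protein-coding genes) summed to 593 to 761 RPKM in DTR and 2581 to 3979 RPKM in WT, and 7 of the 9 fell.

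As a group the Wnt genes were expressed at low levels and most did not pass the test. Of the 41 members 18 had a mean log2 RPKM above -2 over the 6 libraries and were tested, 2 had no read in any library (Dkk1 and Wnt8a), and the other 21 lay below that level and were not tested. In all, 2 members fell in DTR at an adjusted p of 0.05 in limma, Sfrp5 and Wnt5a, and none rose; over all 15563 tested genes 8.74% were called lower and 9.54% higher, 18.3% in all. At an unadjusted p under 0.05 the same fit gave 2 higher and 2 lower members, and limma's voom on recovered reads called 1 higher (Fzd6) and 2 lower. The median log2 difference of the tested members was 0.022, against 0.031 over all tested genes. DTR and WT libraries did not overlap for 7 of the 18 tested members, 2 higher and 5 lower in DTR, while 47.7% of all tested genes did not overlap (25.1% higher and 22.6% lower). The members were called no more often than genes in general. Leaving out any of the WT libraries reduced the count of called members to 0 and the count over all genes to 152 to 207.

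**Figure D1:**
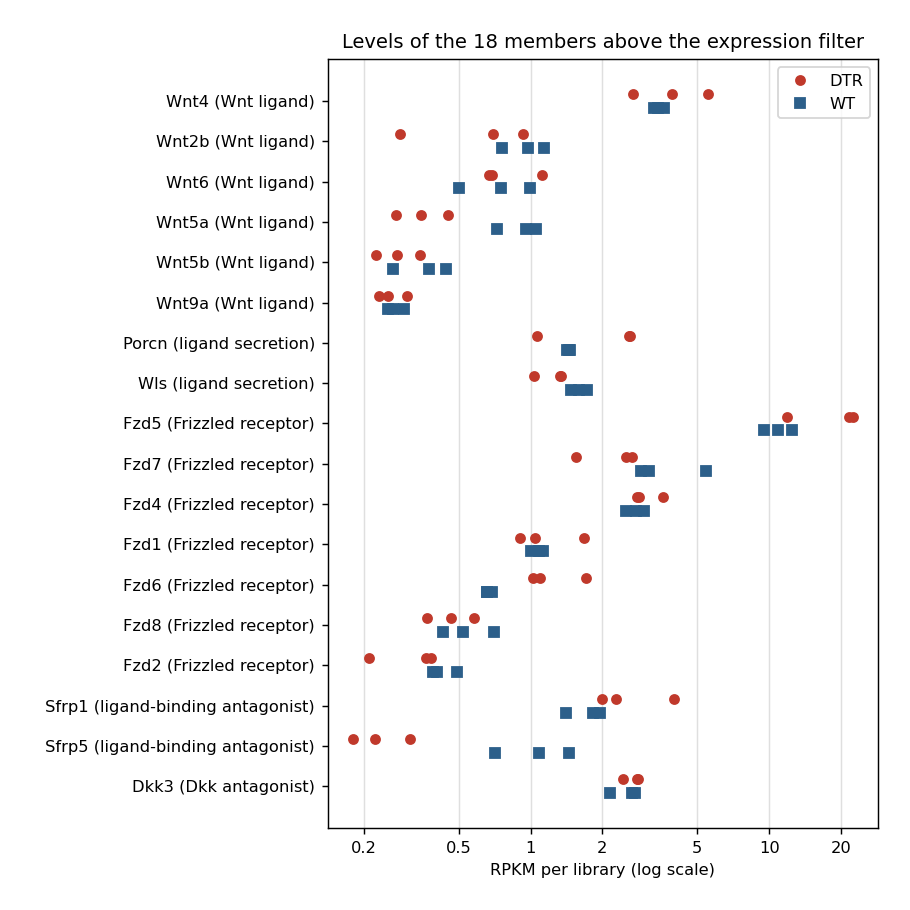
RPKM in each of the 3 DTR libraries (red circles) and 3 WT libraries (blue squares) for the 18 members above the expression filter, on a log axis, grouped by role and ordered by level. Fzd5 is the most abundant, at 11.8 to 22.5 RPKM in DTR and 9.50 to 12.5 RPKM in WT, and Sfrp5 and Wnt5a show a gap between the groups.

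Among the ligands Wnt4 was the most abundant, and of the 6 ligands tested only Wnt5a passed. Wnt4, a ligand of the subepithelial stroma, had 2.70, 3.91 and 5.55 RPKM in DTR replicates 1, 2 and 3, against 3.30, 3.62 and 3.41 RPKM in WT replicates 1, 2 and 3. The DTR libraries lay on both sides of the narrow WT range, and Wnt4 did not pass (log2 difference 0.18, SE 0.27; limma adjusted p = 0.651), with a negative difference without DTR replicate 3. All 19 ligands together summed to 7.54 ± 1.36 RPKM in DTR and 7.31 ± 0.340 RPKM in WT (SD, n = 3 each). Wnt4 made up 41.2%, 56.0% and 61.1% of that sum in DTR replicates 1, 2 and 3, and 46.8%, 47.0% and 47.3% in WT replicates 1, 2 and 3. The sums of the groups overlapped, and the Wnt4 share was more variable in DTR.

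Wnt5a, a ligand best known for signals that do not use β-catenin, fell to 0.391 of its WT level (ENSMUSG00000021994.15, mm10, chromosome 14, 28504750 to 28527448, plus strand). It had 0.450, 0.347 and 0.272 RPKM in DTR replicates 1, 2 and 3 (227, 167 and 132 reads), against 0.958, 1.06 and 0.722 RPKM in WT replicates 1, 2 and 3 (554, 505 and 428 reads). The highest DTR value lay under the lowest WT value, and the log2 difference was -1.37 (SE 0.30; limma adjusted p = 0.0322). Its share of the summed ligand RPKM was 4.94% ± 1.94 in DTR and 12.4% ± 2.10 in WT (SD, n = 3 each). Wnt5a passed in 9 of 15 other settings. Among the settings with 1 library left out, the call was lost without DTR replicate 2 (adjusted p = 0.0528), DTR replicate 3 (0.0721), WT replicate 1 (0.120), WT replicate 2 (0.125) or WT replicate 3 (0.0925). The antisense gene Gm2670 overlaps 4.58% of the exonic bases of Wnt5a, and reads of the pair cannot be separated where strand is not stated.

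Markers of the stromal cells that make Wnt5a did not move as 1 group. Of 8 markers of subepithelial stroma, Bmp5, which encodes a BMP ligand, fell (log2 difference -1.49, SE 0.35; limma adjusted p = 0.0352), and Foxl1, a transcription factor of subepithelial telocytes, had 0.252, 0.0721 and 0.214 RPKM in DTR replicates 1, 2 and 3, against 0.430, 0.514 and 0.517 RPKM in WT replicates 1, 2 and 3, and did not pass (adjusted p = 0.0761). At an unadjusted p under 0.05 the list had 1 higher and 2 lower, and voom called 0 higher and 2 lower. The groups did not overlap for 4 of the 8 (1 higher and 3 lower in DTR). Over all tested genes 47.7% did not overlap (25.1% higher and 22.6% lower). The 8 summed to 10.6 to 31.0 RPKM in DTR and 10.9 to 12.5 RPKM in WT, with F3, the tissue factor gene, at 3.68 to 17.6 RPKM in DTR and 1.46 to 2.96 RPKM in WT. F3 and Foxf1, which averaged 6.29 RPKM in DTR and 3.22 RPKM in WT, made up most of this sum in each DTR library but not in the WT libraries, and 5 of the 8 log2 means were lower in DTR. None of 9 fibroblast markers was called by limma (1 at an unadjusted p under 0.05, 0 by voom), and they summed to 36.8 to 57.7 RPKM in DTR and 36.1 to 49.5 RPKM in WT. The 6 trophocyte markers, of the stroma below the crypts, summed to 37.0 to 63.3 RPKM in DTR and 52.3 to 61.1 RPKM in WT. Cd81 and C3 together made up most of this sum in every library, so it says little about the other trophocyte markers. Cd81 was at 26.4 to 37.2 RPKM in DTR and 35.8 to 37.4 RPKM in WT. C3 averaged 17.3 RPKM in DTR and 15.8 RPKM in WT, with 2.35 RPKM in DTR replicate 3. No marker in these lists was at 0 in all libraries. The part of stromal cell numbers in the Wnt5a value was not tested.

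The other ligands did not pass. Wnt2b, a stromal ligand that supports crypt stem cells, had 0.930, 0.282 and 0.694 RPKM in DTR replicates 1, 2 and 3, against 1.14, 0.977 and 0.760 RPKM in WT replicates 1, 2 and 3. DTR replicate 1 lay inside the WT range and DTR replicate 2 far below it (log2 difference -0.74, SE 0.47; limma adjusted p = 0.280). Wnt5b, the closest relative of Wnt5a, averaged 0.281 ± 0.0594 RPKM in DTR and 0.361 ± 0.0896 RPKM in WT (SD, n = 3 each; adjusted p = 0.478 in limma). Wnt6 and Wnt9a differed by 0.15 (SE 0.36) and -0.05 (SE 0.30) on the log2 scale (adjusted p = 0.774 and 0.911 in limma), and both signs turned under some settings.

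Wnt3, the Paneth cell ligand, lay just outside the filter at a mean log2 RPKM of -2.02, where Wnt9a at -1.91 lay just inside. It had 0.333, 0.264 and 0.304 RPKM in DTR replicates 1, 2 and 3 (66, 50 and 58 reads), against 0.229, 0.197 and 0.180 RPKM in WT replicates 1, 2 and 3 (52, 37 and 42 reads). Every DTR library lay above every WT library, a 1.49-fold ratio of means. In a fit of all 31972 genes with a read the log2 difference was 0.57 and did not pass (limma adjusted p = 0.391). Most Paneth markers stood lower beside it, 7 of the 9. Lyz1, the Paneth lysozyme gene, was at 118 to 170 RPKM in DTR and 447 to 696 RPKM in WT. The groups overlapped for Mmp7, at 7.42 to 17.1 RPKM in DTR and 9.36 to 14.5 RPKM in WT. They also overlapped for Nupr1, at 22.9 to 87.8 RPKM in DTR and 21.2 to 80.8 RPKM in WT. The part of Paneth cell RNA in the Wnt3 value was not tested.

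Several ligands that are scarce in this tissue had their higher values in DTR, at levels per length below the expression filter. Wnt11, a ligand of cell movement in development, had 35, 101 and 147 reads in DTR replicates 1, 2 and 3, against 40, 18 and 41 reads in WT replicates 1, 2 and 3. In RPKM these were 0.131, 0.397 and 0.572 in DTR replicates and 0.131, 0.0711 and 0.131 in WT replicates, so that DTR replicate 1 sat at the upper edge of WT and the other two well above it. Wnt16 had 0.107, 0.253 and 0.0849 RPKM in DTR replicates 1, 2 and 3, against 0.0124, 0 and 0.0545 RPKM in WT replicates 1, 2 and 3. Wnt10a had 2, 2 and 8 reads in DTR replicates 1, 2 and 3 and none in WT. In the fit of all genes with a read Wnt11 (limma adjusted p = 0.198), Wnt16 (0.155) and Wnt10a (0.0517) did not pass. Wnt11 passed without DTR replicate 1 (log2 difference 2.15; adjusted p = 0.0415 in limma), and Wnt10a passed in 6 other settings, among them without DTR replicate 1 (0.0266) and without DTR replicate 3 (0.0451), on at most 8 reads a library. The pseudogene Gm8398, on the opposite strand, overlaps 8.80% of Wnt11 exonic bases. Below the filter the groups did not overlap for 7 of the 21 members with a read, 5 higher and 2 lower in DTR. Over all such genes the share was 16.2% (5.99% higher and 10.3% lower); it depends on read numbers, so the 2 shares are not a like comparison.

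Of the remaining ligands Wnt9b had 6 to 40 reads in DTR and 42 to 68 in WT, Wnt10b 5 to 22 and 4 to 6, Wnt7b 6 to 24 and 6 to 16, and Wnt2 4 to 10 and 6 to 14. Wnt1, Wnt3a, Wnt7a and Wnt8b never exceeded 8 reads. Some ligand genes lie side by side. Wnt6 and Wnt10a are 6.19 kb apart on chromosome 1, and Wnt6 averaged 0.825 RPKM in DTR and 0.751 RPKM in WT, while Wnt10a had reads in the DTR libraries and none in the WT libraries. Wnt9b and Wnt3 are 24.3 kb apart on chromosome 11, with mean RPKM of 0.0936 and 0.300 in DTR and 0.175 and 0.202 in WT.

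Neither secretion gene passed. Wls, the ligand carrier, had 1.04, 1.33 and 1.34 RPKM in DTR replicates 1, 2 and 3, against 1.72, 1.59 and 1.48 RPKM in WT replicates 1, 2 and 3. All DTR libraries lay below all WT libraries, by a log2 difference of -0.38 (SE 0.19; limma adjusted p = 0.193). Porcn, the ligand acyltransferase, is X-linked and had 2.57, 1.07 and 2.60 RPKM in DTR replicates 1, 2 and 3, against 1.45, 1.46 and 1.42 RPKM in WT replicates 1, 2 and 3. DTR replicate 2 lay below WT and the other two above it (log2 difference 0.42, SE 0.37; limma adjusted p = 0.427), and Porcn passed when DTR replicate 2 was left out (0.84; adjusted p = 0.0276).

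**Figure D2:**
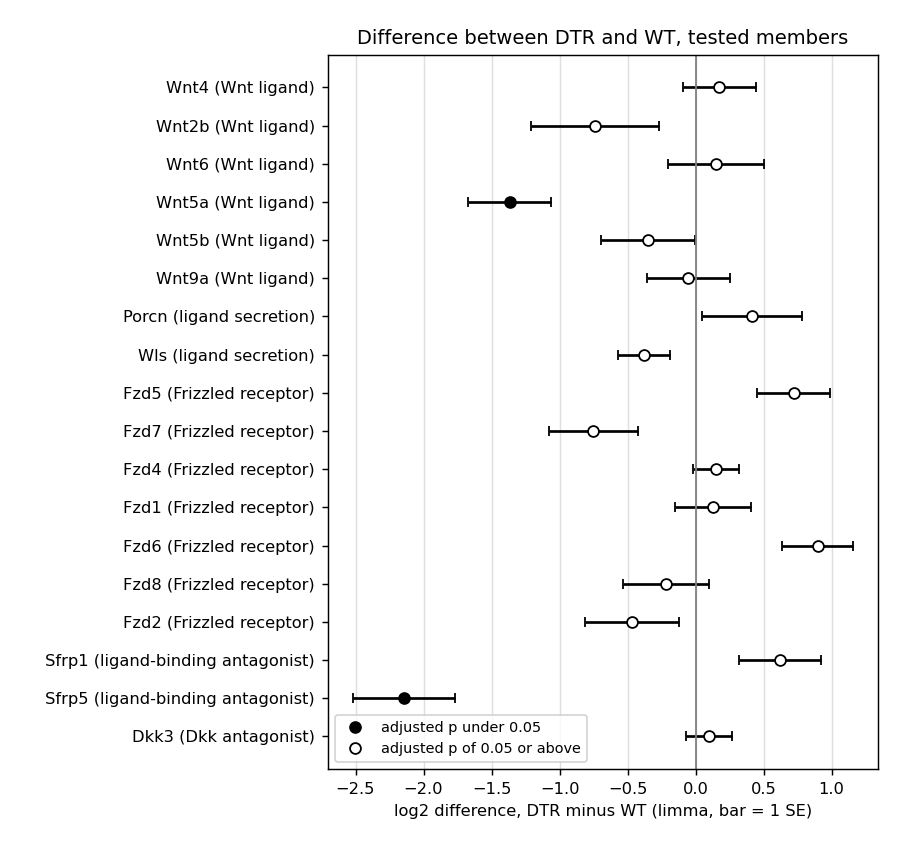
The log2 difference of DTR minus WT for the 18 tested members, with 1 SE from limma; filled points passed at an adjusted p of 0.05. Sfrp5 (-2.15) and Wnt5a (-1.37) are filled, and Fzd6 (0.90) is the highest of the open points.

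The Frizzled receptors went in different directions and none passed the test. Limma called 0 of the 7 tested, with 2 higher at an unadjusted p under 0.05 (Fzd6 and Fzd5), and voom called Fzd6. Fzd5, the main Frizzled of intestinal epithelium and needed for Paneth cell maturation, had 11.8, 22.5 and 21.7 RPKM in DTR replicates 1, 2 and 3, against 10.9, 9.50 and 12.5 RPKM in WT replicates 1, 2 and 3. DTR replicate 1 lay within WT and the other two at about the same raised level, and the log2 difference was 0.72 (SE 0.27; limma adjusted p = 0.102). Without DTR replicate 1 it was 1.02 and passed (adjusted p = 0.00758), as it did with array weights (0.0329). The unspliced transcript Gm38058, on the opposite strand, overlaps 17.8% of Fzd5 exonic bases.

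Fzd6, a receptor of planar cell polarity, had 1.02, 1.10 and 1.71 RPKM in DTR replicates 1, 2 and 3, against 0.657, 0.689 and 0.654 RPKM in WT replicates 1, 2 and 3. All DTR libraries lay above the narrow WT range (log2 difference 0.90, SE 0.26), and the adjusted p of 0.0575 in limma ranged from 0.0207 to 0.166 over 15 other settings, of which 4 called it. A long non-coding gene on the opposite strand, Gm26704, overlaps 3.15% of its exonic bases.

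Fzd7, which transmits Wnt signals in Lgr5-positive stem cells, had 1.55, 2.66 and 2.52 RPKM in DTR replicates 1, 2 and 3, against 3.15, 2.90 and 5.44 RPKM in WT replicates 1, 2 and 3. All DTR libraries lay below all WT libraries (log2 difference -0.75, SE 0.33), without passing (adjusted p = 0.140 in limma and from 0.118 to 0.346 in 16 other settings). The balance of the epithelial pair was similar within each group: Fzd5 RPKM was 7.66, 8.44 and 8.60 times Fzd7 RPKM in DTR replicates 1, 2 and 3, and 3.46, 3.28 and 2.29 times in WT replicates 1, 2 and 3. This ratio was formed after the values were seen and has no test.

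Fzd4, which also binds the eye and vessel ligand Norrin, had 3.59, 2.80 and 2.86 RPKM in DTR replicates 1, 2 and 3, against 2.52, 2.76 and 3.00 RPKM in WT replicates 1, 2 and 3, and the groups overlapped (log2 difference 0.15, SE 0.17; limma adjusted p = 0.526). Fzd1 had 1.04, 1.68 and 0.905 RPKM in DTR replicates and 1.12, 1.08 and 0.999 RPKM in WT replicates 1, 2 and 3 (adjusted p = 0.757 in limma), with DTR replicate 2 above WT and DTR replicate 3 below it. Fzd2 averaged 0.319 ± 0.0938 RPKM in DTR and 0.429 ± 0.0546 RPKM in WT, and Fzd8 averaged 0.471 ± 0.107 RPKM in DTR and 0.550 ± 0.138 RPKM in WT (SD, n = 3 each; limma adjusted p = 0.343 and 0.631). Fzd3, Fzd9 and Fzd10 lay below the filter, and Fzd3 had 28 to 30 reads in DTR and 39 to 72 in WT. Fzd10 had 2, 0 and 0 reads in DTR replicates 1, 2 and 3, against 8, 14 and 2 reads in WT replicates 1, 2 and 3, and the groups overlapped. Fzd9 had 2 to 20 reads in DTR and 2 to 18 in WT. All 10 receptors summed to 27.4 ± 6.58 RPKM in DTR and 20.4 ± 2.76 RPKM in WT (SD, n = 3 each). Fzd7 held 8.14% ± 0.302 of that sum in DTR and 18.4% ± 4.08 in WT, and Fzd5 held 67.1% ± 6.41 in DTR and 53.7% ± 2.54 in WT.

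**Figure D3:**
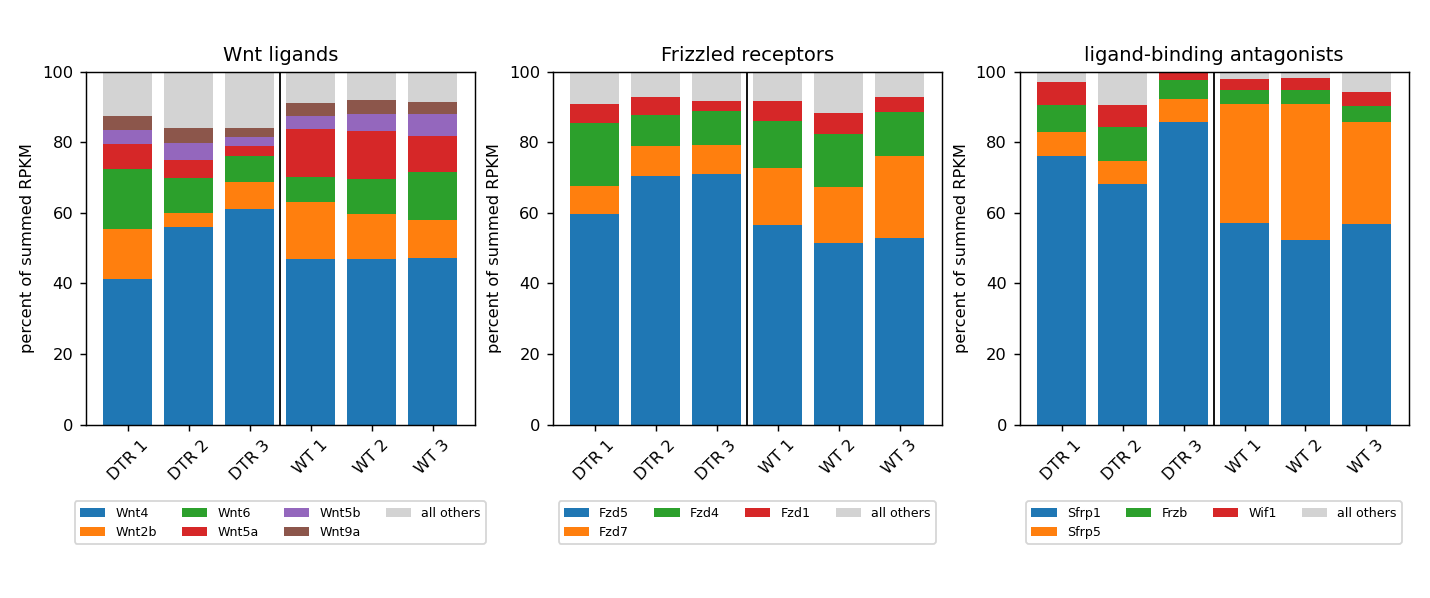
Percent of the summed RPKM of 19 Wnt ligands, 10 Frizzled receptors and 6 ligand-binding antagonists held by the leading genes of each role, with 1 bar per library, DTR on the left and WT on the right of the line. Sfrp5 takes 6.64 to 6.85% of the antagonist bar in DTR and 28.7 to 38.7% in WT, and Fzd7 and Wnt5a are narrower in DTR.

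Among the tested members the largest fall was that of an antagonist. Sfrp5, a secreted frizzled-related protein that binds Wnt ligands (ENSMUSG00000018822.7, mm10, chromosome 19, 42197971 to 42202252, minus strand), had 0.180, 0.222 and 0.313 RPKM in DTR replicates 1, 2 and 3 (22, 26 and 37 reads), against 1.08, 1.45 and 0.708 RPKM in WT replicates 1, 2 and 3 (152, 168 and 102 reads). Every DTR library lay well below every WT library, and the mean in WT was 4.52 times that in DTR. The log2 difference was -2.15 (SE 0.38; limma adjusted p = 0.0197). Sfrp5 passed in 11 of 15 other settings. Among the settings with 1 library left out, it did not pass when WT replicate 1 (adjusted p = 0.0862), WT replicate 2 (0.0851) or WT replicate 3 (0.0614) was left out. No other annotated gene overlaps its exons, and its promoter window, printed above, held neither TCF-type sequence.

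Dkk4, which binds Lrp5 and Lrp6 and is itself known as a Wnt target gene, was the other antagonist with a wide gap. It had 12, 8 and 0 reads in DTR replicates 1, 2 and 3, against 61, 41 and 85 reads in WT replicates 1, 2 and 3 (chromosome 8, 22624043 to 22627547, plus strand). This is 0.142, 0.0988 and 0 RPKM in DTR, where the 0 allows up to 0.0367 RPKM (the worth of 3 reads), against 0.627, 0.510 and 0.853 RPKM in WT. Its mean log2 RPKM of -2.73, lowered by the library with no read, put it below the filter. In the fit of all genes with a read it did not pass (limma adjusted p = 0.112), and the adjusted p was 0.0384 and 0.0335 with pseudocounts of 0.1 and 1, 0.0341 with voom and 0.0419 with array weights. Most low read numbers were even (73.5% of all values from 1 to 20 reads, and 91.1% of the 56 such values of members). The counting setting is not stated. The floor of 3 reads takes reads as independent and covers counting error only. It would be too low if fragments were counted as 2 reads, and the reads of scarce members such as Wnt10a would then stand for fewer fragments.

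Paneth and stem cell markers moved in part beside these antagonists. The summed Paneth level in DTR, 665 RPKM on average, was below the 3439 RPKM in WT. Of 8 crypt base stem markers 7 were tested, of which 1 rose and none fell (0 lower at an unadjusted p under 0.05). The riser was Slc12a2, an ion cotransporter (log2 difference 0.73, limma adjusted p = 0.0292). Lgr5, the marker left out by the filter, averaged 0.0289 RPKM in DTR and 0.371 RPKM in WT, and the groups did not overlap. Of the 7 tested markers 4 had higher and 3 had lower log2 means in DTR. The stem cell transcription factor Ascl2 was at 1.41, 0.310 and 0.754 RPKM in DTR replicates 1, 2 and 3, against 0.666, 0.544 and 0.325 RPKM in WT replicates 1, 2 and 3. The part of these cells in the values of Sfrp5 and Dkk4 was not tested.

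Other antagonists were higher in DTR or overlapped. Sfrp1, the most abundant ligand-binding antagonist, had 1.99, 2.28 and 4.01 RPKM in DTR replicates 1, 2 and 3, against 1.83, 1.95 and 1.41 RPKM in WT replicates 1, 2 and 3. The groups were separated by a small margin and DTR replicate 3 stood highest (log2 difference 0.62, SE 0.30; limma adjusted p = 0.178). Sfrp1 RPKM was 11.1, 10.3 and 12.8 times Sfrp5 RPKM in DTR replicates 1, 2 and 3, and 1.69, 1.35 and 1.99 times in WT replicates 1, 2 and 3, a ratio formed after the values were seen. Frzb, below the filter, had 0.201, 0.321 and 0.249 RPKM in DTR replicates 1, 2 and 3, against 0.125, 0.141 and 0.114 RPKM in WT replicates 1, 2 and 3, and the groups did not overlap (limma adjusted p = 0.215 in the fit of all genes with a read). Wif1 averaged 0.160 ± 0.0510 RPKM in DTR and 0.111 ± 0.0206 RPKM in WT (SD, n = 3 each). Sfrp2 had 9, 40 and 0 reads in DTR replicates 1, 2 and 3, against 8, 6 and 16 in WT, and Sfrp4 at most 14 reads in any library; the antisense gene Gm26771 overlaps 16.1% of Sfrp2 exonic bases. The summed RPKM of the 6 was 3.55 ± 1.04 in DTR and 3.13 ± 0.636 in WT (SD, n = 3 each), and the groups overlapped in this sum.

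Dkk3, a Dickkopf relative that does not act on Lrp5 or Lrp6 as the others do, was the most abundant Dickkopf gene and overlapped between the groups: 2.44, 2.79 and 2.82 RPKM in DTR replicates 1, 2 and 3, against 2.75, 2.15 and 2.65 RPKM in WT replicates 1, 2 and 3 (log2 difference 0.10, SE 0.17; limma adjusted p = 0.695). Dkk2 had 16 to 28 reads in DTR and 18 to 38 in WT.

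**Figure D4:**
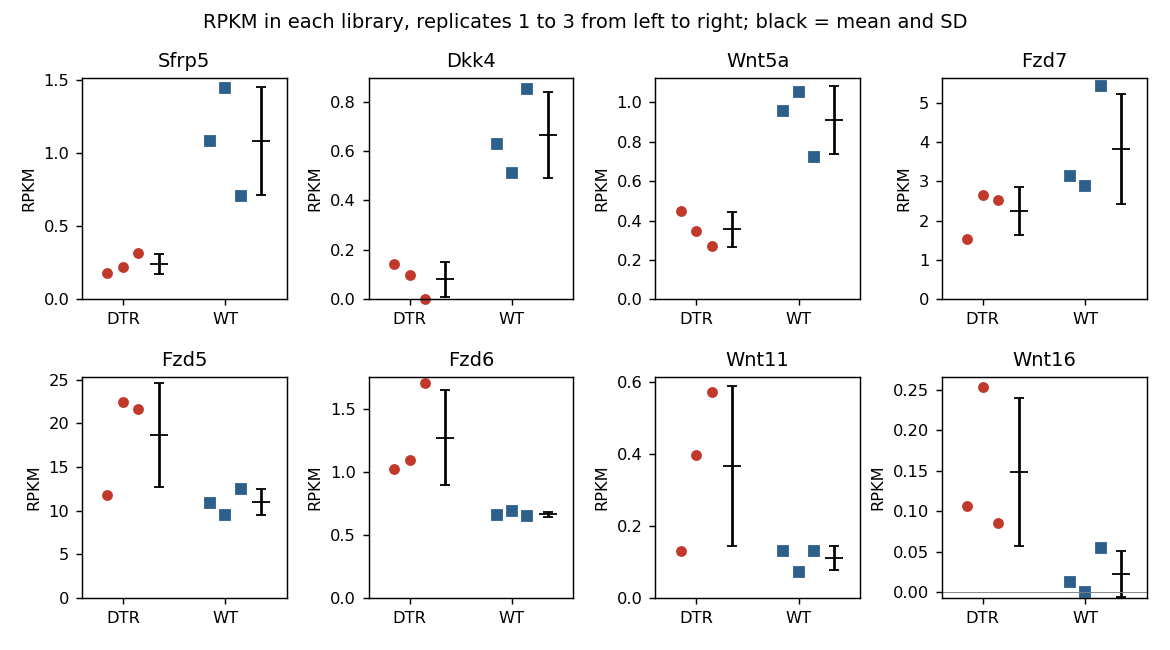
RPKM in each library for 8 members, with DTR (red circles) left of WT (blue squares) and the mean and SD in black. Sfrp5, Dkk4, Wnt5a and Fzd7 lie lower in DTR, and Fzd6, Wnt11 and Wnt16 lie higher. DTR replicate 1 of Wnt11 (0.131 RPKM) lies at the upper edge of WT. For Fzd5, DTR replicate 1 (11.8 RPKM) lies within the WT values.

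The DTR libraries differed from each other more than the WT libraries did in these genes as in others. The median SD of log2 RPKM over the 18 tested members was 0.41 in DTR and 0.19 in WT, against 0.37 and 0.15 over all tested genes. DTR replicate 1 lay nearest the WT mean of the DTR libraries for 8 of the 18 tested members, replicate 2 for 8 and replicate 3 for 2. Over all tested genes replicate 1 was nearest for 55.0%.

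Beyond the members, 80 genes of Wnt reception, transduction and extracellular control were examined, excluding the Lgr, R-spondin, Rnf43 and Znrf3 genes. Of the 64 tested, 7 rose and none fell in limma, against 9.54% of all genes called higher and 8.74% called lower; at an unadjusted p under 0.05 there were 16 higher and 5 lower, and voom called 8 higher and 0 lower. Their median log2 difference was 0.15, against 0.031 over all tested genes. The groups did not overlap for 33 of the 64 (25 higher and 8 lower in DTR), against 47.7% of all tested genes (25.1% higher and 22.6% lower). Kremen1, a receptor that works with Dkk proteins to remove Lrp6 from the cell surface, had 2.98, 5.45 and 5.35 RPKM in DTR replicates 1, 2 and 3, against 1.92, 1.56 and 1.72 RPKM in WT replicates 1, 2 and 3. All DTR libraries lay above WT, with a 2.65-fold ratio of means (log2 difference 1.36, SE 0.27; limma adjusted p = 0.0257). Tspan12, a tetraspanin that helps Fzd4 respond to Norrin, had 16.9, 9.90 and 9.26 RPKM in DTR replicates 1, 2 and 3, against 4.81, 4.28 and 4.73 RPKM in WT replicates 1, 2 and 3 (log2 difference 1.33, SE 0.25; adjusted p = 0.0219 in limma).

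The other risers were smaller. Tnks, a tankyrase that marks axin for destruction, rose by a log2 difference of 0.64 (SE 0.12), and Igfbp4, which can block Frizzled and Lrp6, by 0.93 (SE 0.23). Tmed5, of the early secretory pathway, rose by 0.92 (SE 0.22), and the X-linked Atp6ap2, which couples Lrp6 to the proton pump, by 0.68 (SE 0.14). Usp6nl, a GTPase-activating protein for Rab proteins whose place among Wnt genes is uncertain, rose by 1.16 (SE 0.23). Their limma adjusted p ranged up to 0.0390, and all 7 calls were lost when any WT library was left out. The co-receptor gene Lrp5 averaged 7.69 ± 1.36 RPKM in DTR and 4.95 ± 0.433 RPKM in WT (SD, n = 3 each; adjusted p = 0.0511 in limma), and Lrp6 averaged 4.31 RPKM in DTR and 4.32 RPKM in WT (limma adjusted p = 0.970). The β-catenin gene Ctnnb1 averaged 79.2 RPKM in DTR and 104 RPKM in WT without passing (limma adjusted p = 0.0853).

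**Figure D5:**
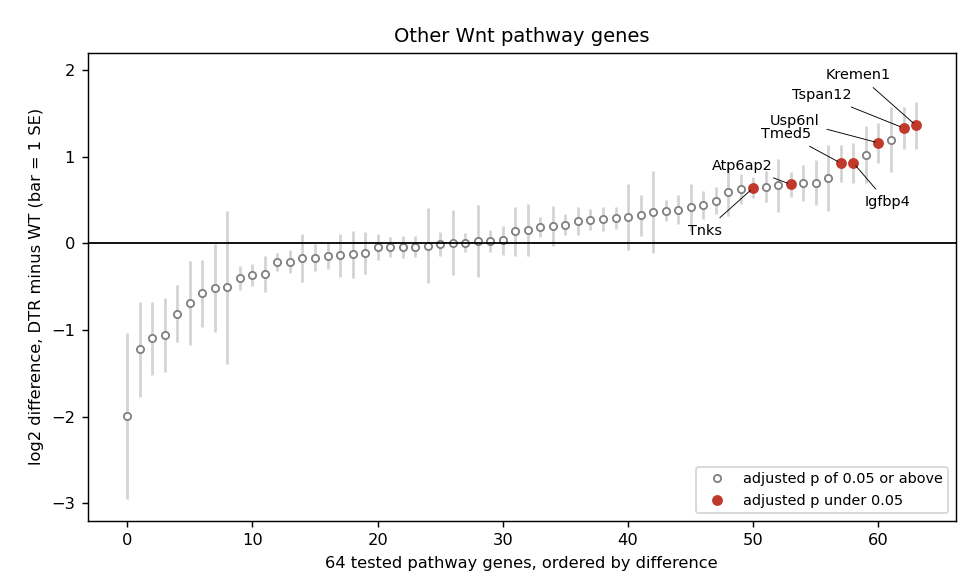
The log2 difference of DTR minus WT with 1 SE for the 64 tested genes of the wider pathway list, in order of size; filled red points passed at an adjusted p of 0.05. All 7 red points lie above 0, from Tnks (0.64) to Kremen1 (1.36).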

How the data were processed

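RNA-seq libraries of whole small intestine, 3 DTR and 3 WT, were compared. The deposited values are log2 RPKM, per the file headers; edgeR, Subread, featureCounts, STAR, MultiQC, FastQC and build mm10 are named in the submitters' processing notes. Strand setting and annotation release were not given in the sources used here. The deposited tables also give each library's total reads and a normalization factor, a ratio that rescales that total. Columns were matched to samples by title, since 2 WT samples share 1 description. Reversing the logarithm (prior count 0.25) gave whole reads for 100% of values within 1e-06, from which RPKM and read numbers were computed. Replicates of a group differed by a chi-square of 69.1 to 396 per gene, so none was a repeat of another.

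The deposited log2 values of the 15563 genes whose mean exceeded -2 were compared with limma 3.58.1 (R 4.3.3), using a variance trend and two-sided p-values adjusted by Benjamini-Hochberg over all of them. Fold changes of scarce genes depend on the prior count. Positions come from GENCODE M21, the same build, where all 41 members matched.

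The members, gene lists and tests were chosen with earlier results of these data known. Values per library are given for members past the threshold and tested members with a mean log2 RPKM above 0. They are also given for Wnt3, Wnt2b, Wnt5a and Wnt4. Members whose groups do not overlap by a log2 difference of 1 or more are treated likewise. Fzd6, Frzb, Sfrp2, F3, Foxf1, Foxl1, Ascl2, Lyz1, Mmp7, Nupr1, Cd81, C3, Vil1, Cdh1, Slc12a2, Bmp5, Lrp5, Lrp6 and Ctnnb1 were named after their values were seen. Of the wider list, genes past the threshold are named. The comparison was repeated with each library left out, voom on recovered reads, a replicate block, array weights, quantile normalization, median centring, no variance trend, filtering at 0 or not at all, and pseudocounts of 0.1 or 1.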

Additional observations from a re-analysis of the deposited data

How the results depend on the processing

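With array weights 4862 genes, 4 members (Sfrp5, Wnt5a, Fzd5 and Fzd6) and 18 of the wider pathway list were called. With the replicate number as a block these were 1161, 0 and 1, with an adjusted p in limma of 0.0533 for Sfrp5 and 0.0611 for Wnt5a; the same-numbered libraries were not shown to be pairs (correlations of deviations -0.011, -0.0024 and 0.165). With a filter at 0, which leaves out Sfrp5 and Wnt5a themselves, 0 members were called. Leaving out 1 library gave 152 to 5605 genes, 0 to 4 members and 0 to 17 of the wider list: without DTR replicate 1 they were 5605, 4 and 17, without DTR replicate 3 they were 1010, 1 and 1, and without any WT library 152 to 207, 0 and 0. Other settings kept each count within 1.5 times its value. The cause of these moves was not tested. In the fit of all genes with a read Lgr5 differed by -5.40 on the log2 scale (limma adjusted p = 0.112) and passed with a pseudocount of 0.1 (-1.88), a pseudocount of 1 (-0.41), voom on recovered reads (-5.00) and without DTR replicate 2 (-3.11); with 1 library left out it ranged from -6.71 to -3.11. Signs turned for Fzd1 with array weights (-0.041) and for Wnt9a with quantile normalization (0.13). With 1 library left out signs also turned for Fzd1 (-0.14 to 0.31), Wnt9a (-0.16 to 0.030, and 0.0095 without WT replicate 2), Wnt6 (-0.11 to 0.38, and -0.088 without DTR replicate 1), Wnt4 (-0.082 to 0.44) and Dkk3 (lowest -0.012). None of these passed the test in any setting. With 3 libraries a group, smaller changes in scarce genes may go uncalled.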
